A study of Mus musculus with 6 samples.

Results

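The 9 genes described here encode the vascular endothelial growth factors Vegfa, Vegfb, Vegfc and Pgf, their receptor tyrosine kinases Kdr, Flt1 and Flt4, and the neuropilin co-receptors Nrp1 and Nrp2. They were taken by symbol from gene count tables of 23366 genes, and all 9 were among the 15075 genes with enough counts to test. RNA came from whole mouse embryos at E10.5 on a mixed C57BL/6 CD1 129 background, in 6 libraries, 3 control and 3 knockout. Knockouts carried 1 floxed and 1 null allele of each of the genes that encode histone H3.3, written H3f3afl/- and H3f3bfl/-, whereas controls carried a wild-type allele in place of the null one, H3f3afl/+ and H3f3bfl/+. Embryos of both groups were Trp53-/- and carried Sox2-CreTg/0, a recombinase transgene driven from the epiblast onward, so floxed alleles were open to deletion in the controls as well. The labels do not say whether embryos were littermates or how many went into a library, so an embryo counted below stands for a library. The p-values cover no more than the spread among these 6 libraries, which may be technical in part.

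VEGF ligands are secreted dimers that bind receptor tyrosine kinases on endothelial cells. Kdr carries most of the growth signal of Vegfa, Flt1 binds Vegfa tightly but signals weakly and also binds Vegfb and Pgf, and Flt4 is the receptor for Vegfc in veins and lymphatic vessels. Neuropilins hold ligand at these receptors and also serve as receptors for class 3 semaphorins on growing axons. Transcription of Vegfa is raised by hypoxia-inducible factors when oxygen is low, and mouse embryos are sensitive to its dose.

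The family was chosen by symbol, but with the fold changes and adjusted p-values of this same comparison of control and knockout embryos already known, in which Vegfa and Kdr had passed the test over all genes. The fold changes and adjusted p-values of the 9 genes below are therefore a description of these 6 embryos and not independent evidence. The marker and pathway lists below were also chosen with earlier results of these data known, so their counts are a description too. A gene is called when its edgeR p-value, adjusted by Benjamini-Hochberg over all 15075 genes, is under 0.05.

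Libraries held 24952853 to 30461689 counts in genes. H3f3a had 338 to 366 CPM (counts scaled to library size by the TMM method) in the controls and 64.4 to 70.0 CPM in the knockouts, and H3f3b 669 to 727 against 392 to 503 CPM. The share of alignments outside genes was 9.79% to 13.1% in controls, 18.3% and 18.0% in knockouts 1 and 3, and 10.6% in knockout 2. Markers of neural tissue, heart muscle, somites, gut endoderm and red blood cells were expressed in every library. Macrophage markers were far lower in the knockouts, where 11 of 12 tested were called lower by edgeR, and C1qb and C1qc had 0 counts in every knockout. The exception, Stab1, which endothelium also makes, averaged 33.7 ± 4.25 CPM among controls against 41.2 ± 2.57 CPM among knockouts (SD, n = 3). Of 11 trophoblast markers, Prl2c2, Tpbpa and Ctsq had no count in any library. Hand1, Plac1, Synb and Prl3b1 were detected in every embryo and were the 4 that could be tested. EdgeR called 0 of these 4, with 2 at an unadjusted p under 0.05 and a median log2 fold change of -0.55. Hand1 was at 0.27 and the other 3 were below 0. Prl3b1 had 6 to 22 counts per library and Synb 10 to 63, so the median rests partly on low counts.

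Of the 9 genes, 2 were called higher in the knockouts and 0 lower by edgeR, where 0.551% of all tested genes were called higher and 0.955% lower. DESeq2 and limma-voom also called 0 of the 9 lower, and none of the 9 had an unadjusted p under 0.05 together with a fold below 0. Fold changes were above 0 for 8 of the 9, and for 49.7% of all tested genes. The median log2 fold change of the 9 was 0.33, beside a median of -0.00101 over all tested genes. In 5 of the 9 every knockout embryo lay above every control, which was so for 11.8% of all tested genes. Knockout 2 had the highest level of the 6 embryos in 6 of the 9 genes, and in 20.3% of all tested genes.

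**Figure D1:**
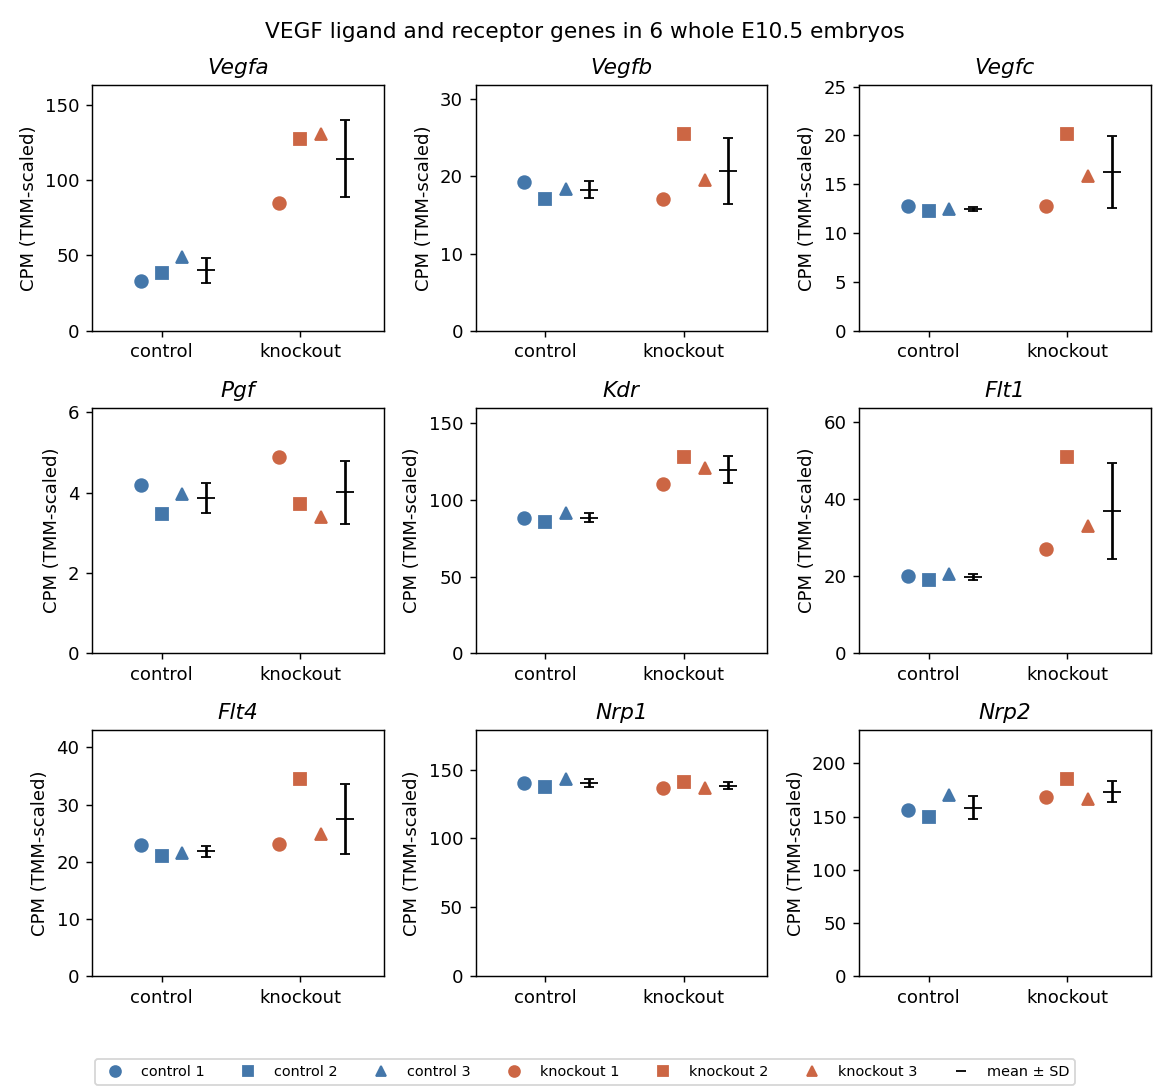
Expression of the 9 VEGF ligand and receptor genes in CPM on TMM-scaled library sizes (y axis, from 0, scaled per gene) in 3 control and 3 knockout embryos, with the mean and SD of each group in black. The groups are apart in Vegfa, Kdr and Flt1, nearly touch in Vegfc and Flt4, and overlap in Vegfb, Pgf, Nrp1 and Nrp2.

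Promoter sequences of the 3 genes with the largest separation between the groups are shown to give the context of their transcription. Each is the 250 bases before the RefSeq transcription start on build GRCm38.p6, 5′ to 3′ on the gene's strand, while the counts were made on mm9. Vegfa is the entry at chr17:46032378-46032627 on the minus strand, the farther upstream of 2 in the table. Kdr lies at chr5:75978456-75978705 on the minus strand and Flt1 at chr5:147726012-147726261 on the minus strand. Capitals mark, on either strand, the core of the hypoxia response element (ACGTG or GCGTG), the GC box bound by Sp1 (GGGCGG), the cyclic AMP response element (TGACGTCA) and the TATA motif TATAAA.
Vegfa: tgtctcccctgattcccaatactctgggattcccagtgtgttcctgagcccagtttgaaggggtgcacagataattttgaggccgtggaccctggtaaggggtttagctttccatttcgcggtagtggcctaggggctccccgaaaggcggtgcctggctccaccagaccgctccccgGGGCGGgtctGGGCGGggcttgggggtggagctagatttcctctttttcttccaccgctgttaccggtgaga
Kdr: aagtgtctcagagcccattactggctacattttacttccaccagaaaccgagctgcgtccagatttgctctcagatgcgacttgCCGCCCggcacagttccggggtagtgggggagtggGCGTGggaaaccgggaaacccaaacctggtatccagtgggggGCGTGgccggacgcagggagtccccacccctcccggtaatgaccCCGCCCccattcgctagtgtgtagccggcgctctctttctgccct
Flt1: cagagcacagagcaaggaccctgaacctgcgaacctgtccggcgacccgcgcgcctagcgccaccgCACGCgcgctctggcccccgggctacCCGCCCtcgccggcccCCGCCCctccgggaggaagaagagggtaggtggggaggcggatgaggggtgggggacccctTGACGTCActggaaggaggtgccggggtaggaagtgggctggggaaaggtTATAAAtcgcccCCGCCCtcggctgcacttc
The Vegfa window held 2 GC boxes, starting 72 and 62 bases before the transcription start, and neither form of the hypoxia core. Only these 250 bases were searched, so a hypoxia core farther upstream would not have been seen. The other Vegfa entry, at chr17:46025164-46025413 and not printed, held ACGTG in reverse at 211, GCGTG at 218 and a GC box at 158 bases before its start. That window lies downstream of the printed transcription start, so its matches are not in the promoter of that start. The Kdr window held GCGTG at 131 and 89 bases before the start and GC boxes at 166 and 45. The Flt1 window held GCGTG in reverse at 184 bases, GC boxes at 158, 142 and 19, the cyclic AMP element at 81 and TATAAA at 31. Among all 32851 promoters in the table, windows of the same length held ACGTG in 16.6%, GCGTG in 28.2%, GGGCGG in 32.7%, TGACGTCA in 1.55% and TATAAA in 12.4%. No searched motif overlapped another within these 3 windows. GC boxes were present in the window of each of the 9 genes, in Pgf in 1 of its 2 entries.

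Vegfa, the main ligand of Kdr, rose most of the 9 genes. Its level was 33.2, 38.1 and 49.2 CPM in controls 1, 2 and 3 and 84.9, 127.5 and 131 CPM in knockouts 1, 2 and 3, from 968, 1119 and 1393 against 2204, 3453 and 3805 counts. Every knockout was above every control, and knockout 1 was the lowest of the knockouts. The means were 40.2 ± 8.22 and 114 ± 25.5 CPM (SD, n = 3), which is 2.85-fold higher, or 1.51 on the log2 scale (SE 0.19, edgeR adjusted p = 0.00699). By p-value Vegfa ranked 53 among all tested genes. Vegfa was also the most variable of the 9 genes among controls, with a coefficient of variation of 20.5%. Without control 2 the edgeR adjusted p was 0.0665, and with any other single library left out it was called. The call also ended with the share of alignments outside genes as a covariate, at 1.55 (edgeR adjusted p = 0.076). Of the knockouts only knockout 2 lies within the controls' range of that share, so fits with this covariate rest mostly on it.

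Vegfb, a ligand of Flt1 that is not needed for vessels to form, showed overlapping groups. It had 19.3, 17.1 and 18.3 CPM in the controls and 17.1, 25.4 and 19.6 CPM in the knockouts, with knockout 2 above the other 5 embryos. Its log2 fold change was 0.18 (SE 0.15, edgeR adjusted p = 0.503), and 0.00603 once knockout 2 was left out.

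Vegfc, the ligand of Flt4 and the driver of lymphatic sprouting, was very even in the controls. It had 12.7, 12.3 and 12.4 CPM there and 12.8, 20.1 and 15.8 CPM in the knockouts. Knockout 1 was at the level of the controls and knockout 2 was the highest. Vegfc was not called, at a log2 fold change of 0.38 (SE 0.16, edgeR adjusted p = 0.231), and stood at 0.20 once knockout 2 was left out. With the share of alignments outside genes as a covariate it was called, at 0.62 (edgeR adjusted p = 0.0245), in a fit that rests mostly on knockout 2.

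Pgf, placental growth factor, which binds Flt1 and not Kdr, was the least abundant ligand in counts. It had 4.18, 3.47 and 3.96 CPM in the controls and 4.89, 3.73 and 3.40 CPM in the knockouts, from 99 to 127 counts per library. Knockout 1 was the highest and knockout 3 the lowest of the 6 embryos. The log2 fold change was 0.05 ± 0.19 (SE, edgeR adjusted p = 0.912). An interval of 2 standard errors either side reached from -0.33 to 0.42, so changes within it are not excluded.

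The make-up of the ligand transcripts shifted with Vegfa. Levels of different genes were compared as CPM per kilobase of exonic length. On this scale Vegfb was the most abundant ligand in the controls at 14.2 ± 0.863 CPM per kilobase, followed by Vegfa at 11.4 ± 2.33, Vegfc at 5.10 ± 0.0924 and Pgf at 1.86 ± 0.176 (SD, n = 3). In the knockouts Vegfa was first, at 32.5 ± 7.25 CPM per kilobase, and Vegfb second at 16.2 ± 3.36. The share of Vegfa in the 4 ligands was 29.7%, 35.1% and 39.6% among controls versus 53.6%, 54.8% and 61.3% among knockouts. The share of Vegfb was 40.6% to 47.5% in the controls and 25.3% to 30.1% in the knockouts, although its own level was not called. Within a library the ratio of Vegfa to Kdr per kilobase was 0.633, 0.748 and 0.906 among controls versus 1.29, 1.68 and 1.83 among knockouts, without overlap.

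**Figure D2:**
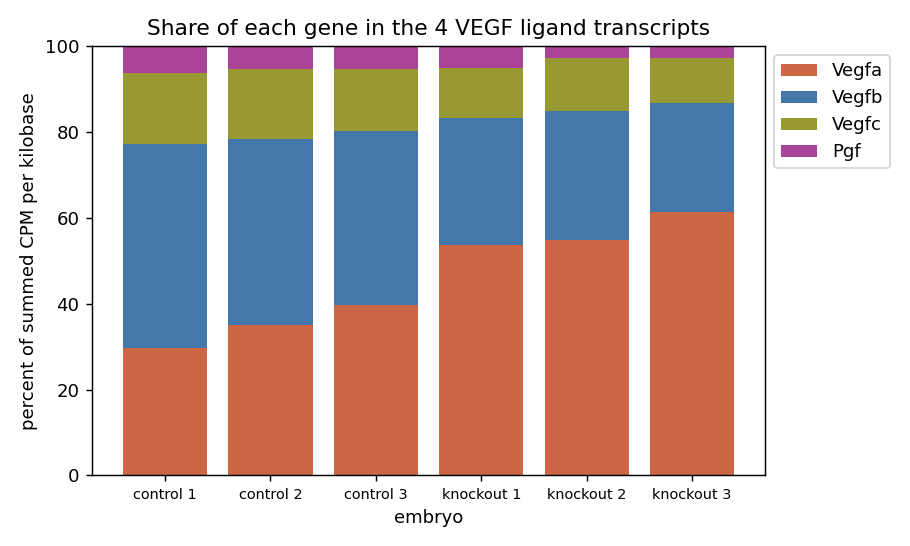
Share of Vegfa, Vegfb, Vegfc and Pgf (y axis, percent of their summed CPM per kilobase of exonic length) in each of the 6 embryos on the x axis. Vegfa makes up 29.7% to 39.6% in the controls and 53.6% to 61.3% in the knockouts.

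Kdr, the main signalling receptor of Vegfa and one of the earliest markers of endothelial precursors, rose by less than Vegfa and more evenly. Its level was 88.1, 85.5 and 91.4 CPM in the controls and 110.5, 128 and 120.3 CPM in the knockouts, with no overlap. The means were 88.4 ± 2.93 and 120 ± 8.72 CPM (SD, n = 3), which is 0.44 on the log2 scale (SE 0.08, edgeR adjusted p = 0.0302). Leaving out any 1 of the controls ended the call, at an edgeR adjusted p of 0.188, 0.115 and 0.0768 for controls 1, 2 and 3, as did leaving out knockout 3 (0.142). The log2 fold change stayed between 0.38 and 0.50 with each library left out.

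Flt1, which encodes the receptor that binds Vegfa without strong signalling and a soluble form of it that traps ligand, was not called but had the second largest fold of the 9. It had 20.0, 19.1 and 20.5 CPM in the controls and 27.01, 50.9 and 32.9 CPM in the knockouts. All knockouts were above all controls, and knockout 2 stood well above the other knockouts. The means were 19.9 ± 0.718 and 37.0 ± 12.5 CPM (SD, n = 3), or 0.90 on the log2 scale (SE 0.20, edgeR adjusted p = 0.0777). DESeq2 called it (adjusted p = 0.000658), and edgeR called it without knockout 1 (log2 fold change 1.08, adjusted p = 0.017) or without knockout 2 (0.59, adjusted p = 0.00826), as well as with the share outside genes as a covariate (1.23, adjusted p = 0.000621). The fit with that covariate rests mostly on knockout 2. Flt1 was not called by limma-voom (adjusted p = 0.103). Nor did edgeR call it without control 1, 2 or 3, at an adjusted p of 0.286, 0.213 and 0.145. The counts pool all exons, so the soluble and the membrane form, like the splice forms of Vegfa, cannot be told apart.

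Flt4, the Vegfc receptor, had 22.9, 21.0 and 21.5 CPM in the controls and 23.2, 34.4 and 24.8 CPM in the knockouts. Knockouts 1 and 3 were just above the highest control and knockout 2 was well above it. Flt4 was not called, at a log2 fold change of 0.33 (SE 0.15, edgeR adjusted p = 0.255), and stood at 0.13 once knockout 2 was left out. With the share outside genes as a covariate Flt4 was called, at 0.59 (edgeR adjusted p = 0.0106), again in a fit that rests mostly on knockout 2.

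Per kilobase, Kdr was the most abundant of the 3 receptors in both groups, at 14.9 ± 0.495 CPM per kilobase in controls and 20.2 ± 1.47 in knockouts (SD, n = 3). Flt4 had 3.49 ± 0.157 and 4.39 ± 0.970 and Flt1 1.81 ± 0.0655 and 3.37 ± 1.14 CPM per kilobase. Flt4 and Flt1 were apart in the controls, whereas in the knockouts their means differed by about the spread between embryos. The ratio of Flt1 to Kdr per kilobase was 0.123, 0.121 and 0.121 in controls 1, 2 and 3 and 0.132, 0.215 and 0.148 in knockouts 1, 2 and 3. The receptors kept a near constant proportion among controls, and Flt1 took a larger share in each knockout.

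**Figure D3:**
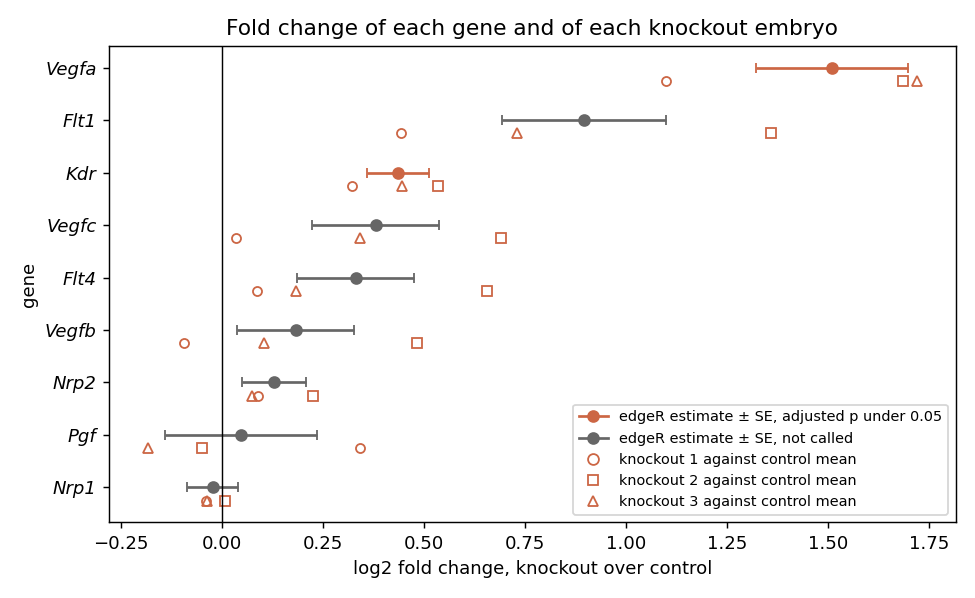
Log2 fold change of knockout over control (x axis) for each of the 9 genes (y axis), as the edgeR estimate with its SE (filled circles, coloured where the adjusted p was under 0.05) and for each knockout embryo against the control mean (open symbols). Vegfa is at 1.51, Flt1 at 0.90 and Kdr at 0.44, and the open symbols of Flt1, Vegfc and Flt4 spread widely with knockout 2 the highest.

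Neither neuropilin was called. Nrp1, the co-receptor of Vegfa in arteries and of Sema3a in axons, had 140.4, 138 and 143 CPM in the controls and 137, 141 and 137 CPM in the knockouts, a log2 fold change of -0.02 ± 0.06 (SE, edgeR adjusted p = 0.872). An interval of 2 standard errors either side reached from -0.15 to 0.10. Nrp2, found on veins, lymphatic vessels and neural crest, had 156, 149.6 and 170.1 CPM in the controls and 168, 185 and 167 CPM in the knockouts, at 0.13 ± 0.08 (SE, edgeR adjusted p = 0.388) with an interval of -0.03 to 0.29. The groups overlapped in both genes, and these intervals leave out changes of the size seen for Vegfa.

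Nrp1 was the most abundant of the 9 genes per kilobase in both groups, at 39.0 ± 0.728 CPM per kilobase in controls and 38.4 ± 0.705 in knockouts (SD, n = 3). In controls it was followed by Nrp2 at 15.3 ± 1.01, Kdr, Vegfb and Vegfa, and neighbours among Nrp2, Kdr and Vegfb were within 1 SD of each other. Vegfc, Flt4, Pgf and Flt1 followed, the last pair within the spread of Pgf. In knockouts Vegfa took the second place by group mean, within 1 SD of Nrp1 and ahead of Kdr. Nrp2 and Vegfb followed within the spread of Vegfb. For these ranks the order within single embryos was not compared. Exonic length was the union of GENCODE M21 basic exons, and with the longest transcript instead Pgf and Flt1 changed places in controls, as did Kdr and Nrp2 and Flt1 and Flt4 in knockouts.

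The receptors were set beside 20 endothelial markers, among them Pecam1, Cdh5 and Tie1, as a measure of endothelial RNA. In whole embryos, more cells of a type and more RNA per cell cannot be told apart. Of the 20 markers 0 were called by edgeR, 0 by limma-voom and 3 higher by DESeq2, with 8 at an unadjusted p under 0.05. Over the whole set of 15075, edgeR placed 2896 below that cut-off before adjustment and 49.7% had folds above 0. DESeq2 called 456 higher and 323 lower over that set. The same background applies to the counts of every list here. Of the 20, 17 had folds above 0, and their median log2 fold change was 0.27. Their median per embryo against the control mean was 0.07, -0.01 and -0.05 in controls 1, 2 and 3 and 0.05, 0.49 and 0.20 in knockouts 1, 2 and 3, so knockout 1 lay within the controls. Without knockout 2 the median log2 fold change was 0.09 and 2 markers were called higher, in a fit that called 1159 genes higher over all tested genes.

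Relative to the median of these markers in the same embryo, Flt1 remained above the controls in every knockout. Its log2 difference was -0.06, -0.04 and 0.09 among controls versus 0.38, 0.85 and 0.51 among knockouts. Kdr stood at -0.07, -0.03 and 0.10 in the controls and at 0.27, 0.04 and 0.24 in the knockouts, so knockout 2, whose Kdr level was the highest, overlapped with the controls on this scale. Flt4 had 0.03, 0.16 and -0.02 in the knockouts against -0.04 to 0.03 in the controls. Nrp1 was lower than in any control, at -0.09, -0.48 and -0.24 in the knockouts against -0.07 to 0.07.

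**Figure D4:**
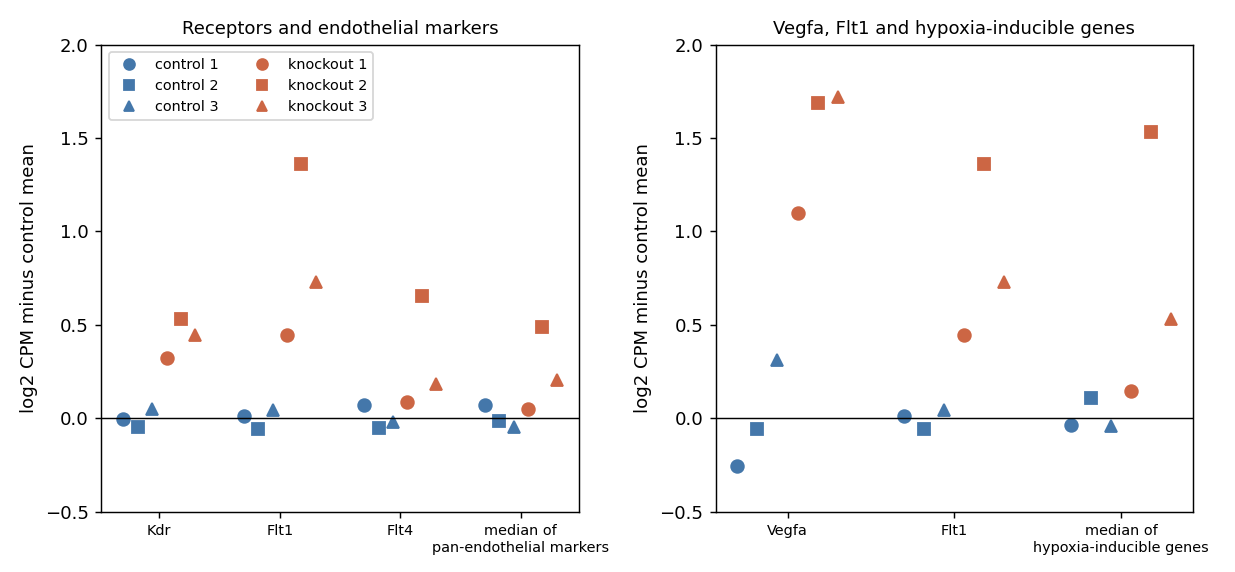
Log2 CPM minus the control mean (y axis) in each embryo for Kdr, Flt1 and Flt4 beside the median of 20 endothelial markers (left), and for Vegfa and Flt1 beside the median of 26 hypoxia-inducible genes (right); list medians use a pseudocount of 0.5 CPM. Knockout 2 is highest in both lists, whereas Vegfa is as high in knockout 3 as in knockout 2.

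Vegfa was set beside 26 other hypoxia-inducible genes. All 26 had folds above 0, beside 49.7% of all tested genes, in a list chosen with earlier results of these data known. Of these 0 were called by edgeR, 0 by limma-voom and 5 by DESeq2, with 14 at an unadjusted p under 0.05. Vldlr, a lipoprotein receptor gene, had the smallest p at a log2 fold change of 1.12 (SE 0.27, edgeR adjusted p = 0.0968), Adm, which encodes the vasodilator adrenomedullin, was at 2.68 and Stc2, a stanniocalcin gene, at 2.22. Adm had 1.27 to 1.53 CPM in the controls and 3.35, 18.4 and 4.98 CPM in knockouts 1, 2 and 3. Stc2 had 2.20 to 3.47 and 5.43, 24.6 and 8.92 CPM in the same order, so every knockout was above every control in both genes and knockout 2 far above the other knockouts. The list median per embryo was -0.04, 0.11 and -0.04 among controls versus 0.14, 1.53 and 0.53 among knockouts 1, 2 and 3. Vegfa was at 1.10, 1.69 and 1.72 in the same knockouts, no higher in knockout 2 than in knockout 3. In knockout 1 Vegfa was above every control, as were Vldlr, Adm, Stc2 and other genes of the list, though not all of them. The list median of knockout 1, at 0.14, was just above the highest control, at 0.11. Without knockout 2 the list median log2 fold change was 0.34 instead of 0.89, and Vegfa was at 1.42 (edgeR adjusted p = 0.0181). In that fit 9 of the 26 were called higher, where 1159 genes were called higher over all tested genes.

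The oxygen-sensing machinery gave no calls. Of 12 tested HIF subunits and regulators 0 were called by edgeR, DESeq2 or limma-voom, 6 had an unadjusted p under 0.05, and the median log2 fold change was 0.16. Hif1a, the oxygen-regulated subunit, which is controlled mainly through protein stability, was at -0.18, its partner Arnt at 0.23 and the neural partner Arnt2 at -0.31. The largest folds were those of Egln3 at 1.24 and Egln1 at 0.51, which are also counted among the hypoxia-inducible genes. Egln3 had 9.56 to 9.72 CPM in the controls and 11.2, 41.3 and 15.6 CPM in knockouts 1, 2 and 3.

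A list of VEGF processing factors and other extracellular partners included a pair of called genes. The list also took in the PDGF genes, the angiopoietins Angpt1 and Angpt2, and the receptors Tek and Tie1, which are endothelial markers above as well. Adamts3, the protease that with Ccbe1 activates Vegfc, rose from 13.1, 12.96 and 13.96 CPM in the controls to 19.4, 18.8 and 20.2 CPM in the knockouts, or by 0.55 on the log2 scale (SE 0.10, edgeR adjusted p = 0.0284). Svep1, a matrix protein required for lymphatic growth, rose from 22.8, 19.4 and 24.1 to 32.2, 35.9 and 37.3 CPM, or by 0.67 (SE 0.11, edgeR adjusted p = 0.0194). Neither gene's groups overlapped, and knockout 2 did not stand apart in Adamts3. Of 18 tested genes in this list 2 were higher and 0 lower by edgeR and by limma-voom, 6 were higher by DESeq2, and the median log2 fold change was 0.16. Ccbe1 itself was at -0.00440, the matrix proteoglycan Hspg2 at 0.57 (edgeR adjusted p = 0.0587), and the further Flt4 ligand Vegfd, listed in the files under its older name Figf, at -0.22. Adamts3 kept its call only without knockout 2, with an edgeR adjusted p of up to 0.181 when another library was left out. Svep1 lost its call when control 1 (edgeR adjusted p = 0.105), control 2 (0.0768) or knockout 3 (0.104) was left out.

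Genes that respond to VEGF in endothelium gave 1 call. Adamts1, a protease that VEGF induces, rose from 48.5, 47.7 and 47.7 CPM in the controls to 64.4, 71.6 and 71.8 CPM in the knockouts, or by 0.53 on the log2 scale (SE 0.08, edgeR adjusted p = 0.0109). Of 16 tested genes 1 was higher and 0 lower by edgeR and by limma-voom, 2 were higher and 1 lower by DESeq2, and 8 had an unadjusted p under 0.05. Folds were above 0 for 12 of them, with a median log2 fold change of 0.25. Egr1 was at 0.68, the arterial Notch ligand Dll4 at 0.56 and the tip cell gene Esm1 at 0.97, none called by edgeR, while the Notch feedback gene Nrarp was at -0.31. Esm1 had 1.78 to 2.01 CPM in the controls and 1.93, 6.50 and 2.64 CPM in knockouts 1, 2 and 3, so knockout 1 lay within the controls and knockout 2 well above the rest. Adamts1 was not called when any 1 control was left out, with an edgeR adjusted p of 0.0785, 0.0643 and 0.0507 for controls 1, 2 and 3, or when knockout 3 was (0.0711).

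Intracellular signalling genes and the other neuropilin partners gave no calls. Of 38 tested genes of signalling below the receptors 0 were called by edgeR or limma-voom and 2 by DESeq2, 4 had an unadjusted p under 0.05, and the median log2 fold change was 0.02, with the endothelial phosphatase Ptprb at 0.43 and the phospholipase Plcg1, which binds activated Kdr, at 0.31. Of 13 class 3 semaphorins, plexins and Gipc1 0 were called by edgeR or limma-voom and 2 by DESeq2, 5 had an unadjusted p under 0.05, and the median was 0.11, with Sema3f, a ligand of Nrp2, at 0.40.

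Markers of arteries, veins and lymphatic vessels gave 2 genes called lower of 12 and 0 higher by edgeR, with a median log2 fold change of 0.08. Pdpn, a glycoprotein of lymphatic endothelium that epithelia and neural tissue also make, fell from 57.8, 58.5 and 56.0 CPM in the controls to 40.3, 43.4 and 39.7 CPM in the knockouts, which is -0.48 on the log2 scale (SE 0.08, edgeR adjusted p = 0.017). Lyve1, shared by lymphatic endothelium and fetal macrophages, fell from 2.22 ± 0.356 to 0.432 ± 0.175 CPM (SD, n = 3), which is -2.34 (edgeR adjusted p = 0.00913). Prox1, the regulator of lymphatic identity, was at -0.18 and not called. The part of this drop in macrophage markers in the levels of Lyve1, Nrp1 and Flt1, which macrophages also express, was not tested. The summed level of the macrophage list ran from 98.7 to 122 CPM in controls and from 42.6 to 46.5 CPM in knockouts, most of the latter being Stab1. Pdpn kept its call only without knockout 2 (edgeR adjusted p up to 0.119 with another library left out), and Lyve1 lost its own when control 1 (0.0601) or control 2 (0.0536) was left out.

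Markers of tissues that make VEGF ligands or neuropilins were compared in the same way. Heart muscle markers had a median log2 fold change of -0.03, with Nppa, the atrial natriuretic peptide, the only one of 9 called by edgeR, at 1.56 (edgeR adjusted p = 0.0138), and 2 called higher by DESeq2. Nppa lost its call when control 2 (edgeR adjusted p = 0.0804) or control 3 (0.0763) was left out. Yolk sac and gut endoderm markers had a median of -0.08, with Ttr, a carrier of thyroid hormone, the only one of 9 called, at -1.69 (edgeR adjusted p = 0.00886), a call that ended when control 1 was left out (0.0528). Neural markers had 10 of 11 folds below 0 and a median of -0.31, 0 called by edgeR or limma-voom, 3 called lower by DESeq2 and 5 at an unadjusted p under 0.05. Their summed level was 1385 to 1718 CPM in controls and 1183 to 1446 CPM in knockouts, and its part in the levels of Nrp1 and Nrp2 was not tested.

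The genes whose profile over the 6 embryos was most like that of Vegfa, Flt1 or Kdr were sought among the 9831 genes that averaged 10 CPM or more. The measure was the root mean square difference of log2 CPM, each gene being centred on its control mean. It is not scaled to the size of a fold or the spread among controls, so distances are not comparable between Vegfa, Flt1 and Kdr. Nearest to Vegfa were Atp10d at 0.27, Tbc1d4 at 0.30, Nppa at 0.31, Rnf17 at 0.32 and the glycolytic gene Pfkp at 0.33. Nearest to Flt1 were the caveolin gene Cav1 at 0.0728, the lysyl oxidase-like gene Loxl2 at 0.0795, the endothelial gene Clec14a at 0.121, the collagen hydroxylase gene P4ha2 at 0.143 and Ndrg2 at 0.147. Nearest to Kdr were the hedgehog receptor gene Ptch1 at 0.0327, Slc4a4 at 0.0378, Cdk6 at 0.0454, Polh at 0.0479 and Adamts9 at 0.0482. With 6 embryos and so many candidates, close profiles are a description only.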

How the data were processed

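The authors deposited whole-number counts per gene symbol for each of the 6 libraries, not normalized. Per the labels' protocols, polyadenylated RNA went into stranded libraries, and per the submitters' processing notes reads were aligned to mm9 with Trimmomatic, TopHat2, Bowtie2 and HTSeq named without versions. The counts used an annotation and a strand setting not given in the sources used here. Library sizes leave out rows that name no gene, and the deposited repeat counts were not used. Between any pair of libraries, chi-square per degree of freedom over genes was 13.01 or more, so all 6 libraries are distinct.

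The test over genes was the robust quasi-likelihood F test of edgeR 4.0.16 (R 4.3.3) on all 6 libraries, with TMM scaling, low genes removed by filterByExpr (count 10, total 15), no term but the group, and Benjamini-Hochberg adjustment over all genes. The script was first tested on data simulated from these libraries. Standard errors were taken as the size of the log2 fold change divided by the root of F. DESeq2 1.42.0, limma-voom (limma 3.58.1), other scalings and filters, an adjusted p under 0.1, a block for the replicate number, leaving out each library or Rn45s, and the share of alignments outside genes as a covariate were alternatives.

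The 9 genes and the marker and pathway lists were chosen with earlier results of these data known. Named beside the 9 were H3f3a and H3f3b, called list genes, up to 3 uncalled list genes with the smallest p, and the 5 genes nearest in profile to Vegfa, Flt1 and Kdr. Stab1, C1qb, C1qc, Ccbe1, Figf, Esm1, Hif1a, Egln1, Egln3, Prox1 and the trophoblast genes were named after their values were seen. Listed genes that are members were left out of list counts. Promoters came from RefSeq on GRCm38.p6 by symbol, with all 9 genes matched.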

Additional observations from a re-analysis of the deposited data

How the results depend on the processing

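Across the alternatives, 137 of 153 results for single genes of the family kept their direction and their side of the threshold, 6 lost a call, 6 gained one and 4 reversed. The reversals were all of uncalled genes near 0: Nrp1 was at 0.0334 with library totals, where the median of all genes moved to 0.06, and Pgf between -0.11 and 0.16 with single libraries left out, below 0 without control 2 (-0.03) or knockout 1, and at -0.0331 with the share of alignments outside genes as a covariate. With that covariate 4 of the 9 were called higher, namely Flt1, Flt4, Kdr and Vegfc, while Vegfa was not (1.55, edgeR adjusted p = 0.076). Of the knockouts only knockout 2 lies within the controls' range of that share, so that fit rests mostly on it. With single libraries left out, 0 to 3 of the 9 were called higher and 0 lower.

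Over all genes, 83 were called higher and 144 lower by edgeR. The counts were 456 higher and 323 lower by DESeq2, 52 higher by limma-voom, 144 higher with no filter on low counts, 86 lower with at least 1 CPM in 3 libraries, 437 higher and 311 lower with the covariate, and 272 higher and 256 lower at an adjusted p under 0.1. Leaving out single libraries gave 7 to 1159 higher and 53 to 504 lower, the highest without knockout 2 and the lowest without control 2; the cause was not tested. With the replicate number as a block 333 were higher and 256 lower, and 2 of the 9, Vegfa and Kdr, were still called. Deviations of same-numbered embryos correlated at -0.0859, 0.175 and 0.264, and 2 of 6 libraries matched best with their own number, so a pairing by number was not established. Nppa lost its call with that block (edgeR adjusted p = 0.0947).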
